A study of Mus musculus with 8 samples.

Results

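The genes described here are 43 mouse genes of the lysosome, out of 22664 different gene symbols in the deposited table. They were taken by name from that table, and were chosen with earlier results of these data known. They comprised 10 proteases, 11 glycan and sulfate hydrolases, and 6 lipid hydrolases and helper proteins. The others were 6 membrane proteins, 7 genes of the vacuolar proton pump (V-ATPase), and the 3 transcription factors Tfeb, Tfe3 and Mitf. All 43 were found, and the authors flagged each as expressed in both groups. Where a symbol had more than 1 probe set, the one with the higher mean signal was used, which concerned Atp6v0c alone.

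RNA came from the gastrocnemius (GAS) muscle of male C57/Bl6j mice aged 22 weeks and was measured on Clariom S Mouse microarrays. A group of 4 arrays carried RNA of muscle given AAV sh-RNA MYTHO (MYTHO-KD), and a group of 4 arrays RNA of muscle given AAV sh-RNA scrmb (scramble), so that every sample of both groups had received a virus and a hairpin RNA. Per the study's methods, the serotype 1 virus was injected into the muscle at an age of about 10 weeks, 3 months before sampling, and the scramble virus went into the contralateral leg. The U6 promoter drives the hairpin in any cell the virus enters, and whole muscle also holds cells that the virus may not have entered. MYTHO is the protein encoded by D230025D16Rik, which the study examined as a regulator of autophagy, the route by which a cell delivers its own contents to lysosomes. The table analysed gives only the authors' average and SD of each group on the log2 scale, so no value of a single array can be shown, and whether single arrays of the groups overlapped cannot be told.

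The targeted gene was checked first. D230025D16Rik averaged 10.02 ± 0.37 in scramble muscle and 7.71 ± 0.66 in MYTHO-KD muscle (log2 signal, SD, n = 4), so its signal in MYTHO-KD muscle was 20.2% of that in scramble muscle. The difference of -2.31 ± 0.30 (SE) passed the limma test with an adjusted p of 0.0138. The label of the tissue was checked with 10 genes of fast muscle fibres, which averaged between 17.58 and 19.93 in scramble muscle. Of these, Acta1, Myh4 and Atp2a1 sat at 19.93, the highest value in the table, with an SD of 0.

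Lysosomes are acidic compartments in which hydrolases break down proteins, glycans and lipids that arrive by endocytosis or autophagy. The V-ATPase acidifies them: its V1 sector splits ATP in the cytosol and its membrane-bound V0 sector moves the protons. TFEB, TFE3 and MITF form the MiT/TFE family, whose members bind E-box sequences near the start of many lysosomal genes, and are themselves controlled largely by where in the cell they are held, which an mRNA level does not show. In skeletal muscle, lysosomes take up glycogen and worn organelles, and loss of the glycogen-degrading hydrolase GAA or of the membrane protein LAMP2 causes inherited myopathy with autophagic vacuoles. Macrophages are rich in many of the same hydrolases.

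The MiT/TFE family binds the palindromic E-box hexamer CACGTG, and the longer form named the CLEAR element carries flanking bases on both sides. The windows from 250 bases before to 50 bases after the transcription start (RefSeq, GRCm38.p6, the same build as mm10) were searched for CACGTG, for TCACGTGA and for the 10-letter CLEAR form, which adds a G in front of the latter and a C behind it. Each of these reads the same on both strands, and each longer form contains the shorter ones, so their counts overlap. A window was available for 36 of the 43 genes. The hexamer was in 14 of the 36 windows (38.9%), against 8.09% of all 27025 genes with a window and 8.91% of the protein-coding ones. The 8-letter form was in 6 (16.7%), against 1.12% of all genes. The 10-letter form was in 0 of the 36, against 0.37% of all genes. E-boxes near the start of many lysosomal genes were already known, as stated above. The higher shares of the hexamer and of the 8-letter form are therefore no independent finding. The stretches below are those of the 6 genes with the 8-letter form, followed by the 3 genes with the hexamer alone whose signal was higher in MYTHO-KD muscle. They are printed 5′ to 3′ on the gene's strand with the hexamer in capitals, and where a window held several, the most upstream one of the form named is shown.
Ctsa, chr2:164833743-164833772, plus strand: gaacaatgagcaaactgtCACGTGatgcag
Ctsd, chr7:142387902-142387943, minus strand: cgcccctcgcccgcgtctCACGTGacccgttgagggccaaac
Gla, chrX:134601209-134601250, minus strand: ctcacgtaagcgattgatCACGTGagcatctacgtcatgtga
Mcoln1, chr8:3500456-3500497, plus strand: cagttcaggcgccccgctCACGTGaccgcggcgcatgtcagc
Atp6v1a, chr16:44139367-44139408, minus strand: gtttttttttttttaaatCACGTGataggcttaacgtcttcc
Atp6v0d1, chr8:105566061-105566085, minus strand: gccaggccctactgcggtCACGTGa
Ctsl, chr13:64370733-64370770, minus strand: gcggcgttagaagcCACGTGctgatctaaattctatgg
Glb1, chr9:114401012-114401053, plus strand: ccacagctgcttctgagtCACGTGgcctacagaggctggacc
Naglu, chr11:101070003-101070044, plus strand: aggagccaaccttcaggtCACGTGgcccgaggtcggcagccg
The first base of the hexamer lay 12 bases before the start in Ctsa, 45 in Mcoln1, 48 in Glb1, 73 in Naglu, 98 in Ctsd, 131 in Atp6v1a, 227 in Gla and 236 in Ctsl. In Atp6v0d1 it began 3 bases before the start and ran across it. A match is a run of letters, and binding of a factor there was not measured.

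Hydrolases and their helper proteins made up most of the lysosomal genes with a higher signal in MYTHO-KD muscle. Of the 7 proton pump genes and the 3 transcription factors 0 were higher. Lists this short cannot set that count apart from the 6.48% of all probe sets that were higher. Of the 43 genes, 11 were higher (25.6%) and 2 were lower (4.65%) at an unadjusted p under 0.05 in the moderated test of limma. The same threshold was passed by 6.48% of all 22206 probe sets in the higher direction and by 5.52% in the lower direction. Among the 27 hydrolases and helper proteins 10 were higher (37.0%) and 0 lower, and their median log2 difference, taken as MYTHO-KD minus scramble, was 0.40. The median was 0.19 over all 43 genes, 0.00 over the membrane proteins, 0.05 over the V-ATPase genes, -0.07 over the transcription factors and -0.01 over all probe sets. A difference of 1.5-fold or more came with that p in 8 genes that were higher and 1 that was lower, against 3.54% and 2.25% of all probe sets, and one of 2-fold or more in 1 gene each way, Gusb and Npc1, against 0.86% and 0.257%. Adjusted by Benjamini-Hochberg over all probe sets, 0 of the 43 genes had an adjusted p under 0.05 in the limma test, against 0.275% of all probe sets (61), with 0.18% higher and 0.0946% lower. The lowest adjusted p among them was 0.0512, for Npc1. With a variance prior that follows the signal and is robust to outliers, 3 genes passed adjustment: Hexa (0.0288), Gusb (0.0482) and Npc1 (0.020). With each group's own variance and no moderation, 6 of the 43 genes were higher and 1 lower at an unadjusted p under 0.05.

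**Figure D1:**
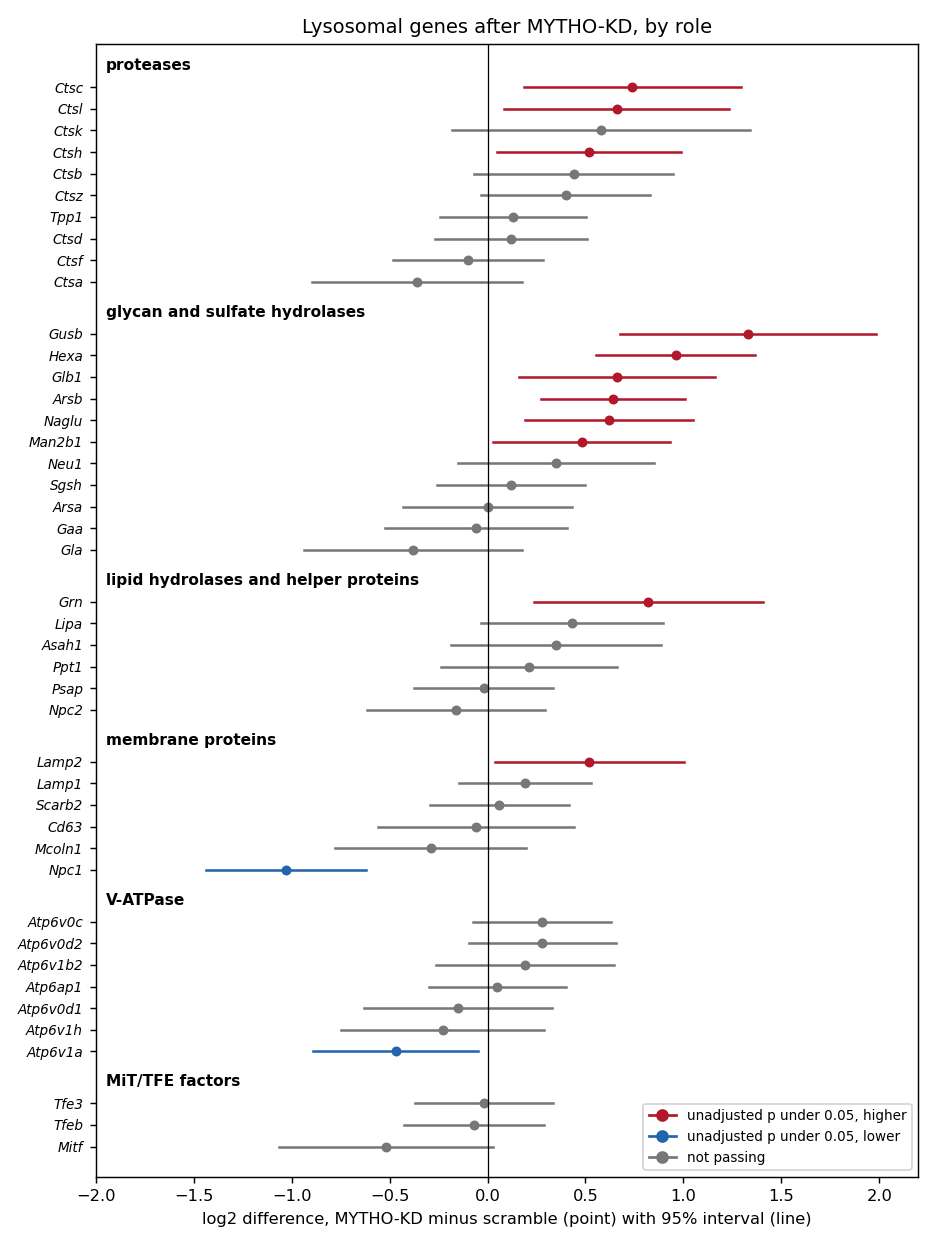
Log2 difference of MYTHO-KD minus scramble for each of the 43 genes, sorted by role, with the point at the difference of the authors' group averages and the line spanning the 95% interval from limma's moderated variance (4 arrays a group). The 11 red intervals lie above 0 and 10 of them belong to hydrolases or helper proteins, while the 2 blue intervals, of Npc1 and Atp6v1a, lie below 0.

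The glycan and sulfate hydrolases held the highest share of genes that were higher, with 6 of 11 and a median log2 difference of 0.48. These enzymes remove single sugars or sulfate groups in sequence, and lack of one of them leads to storage of its undegraded substrate. Gusb (chr5:129989011-130003049 in mm10) encodes β-glucuronidase, which removes glucuronic acid from glycosaminoglycans. Its average was 5.66 ± 0.49 in scramble muscle and 6.99 ± 0.56 in MYTHO-KD muscle (log2 signal, SD, n = 4). The averages lay further apart than the sum of their SDs, and the difference of 1.33 ± 0.30 (SE), or 2.51-fold, was the largest of the 43 (limma adjusted p = 0.0991). The scramble average of Gusb was low, under 5.715, the 30th percentile of the mean signal over all probe sets. Over the 11 genes the median scramble average was 6.40, against 6.81 over all probe sets. Hexa (chr9:59539667-59565110) encodes the α subunit of β-hexosaminidase, which degrades GM2 ganglioside. It averaged 10.39 ± 0.31 in scramble and 11.35 ± 0.14 in MYTHO-KD muscle, a difference of 0.96 ± 0.19 (SE) or 1.95-fold (limma adjusted p = 0.0648). Here too the gap exceeded the sum of the SDs.

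Arsb encodes arylsulfatase B, which removes sulfate from dermatan and chondroitin sulfate. Its average went from 6.96 ± 0.19 in scramble to 7.60 ± 0.18 in MYTHO-KD muscle, a difference of 0.64 with an SE of 0.17 (limma adjusted p = 0.153). Naglu encodes N-acetyl-α-glucosaminidase of the heparan sulfate pathway, and its window carries the hexamer printed above. It averaged 6.11 ± 0.21 in scramble and 6.73 ± 0.32 in MYTHO-KD muscle, with a difference of 0.62 ± 0.20 (SE; limma adjusted p = 0.225). In both genes the gap exceeded the sum of the SDs. Glb1, β-galactosidase, shared its probe set with Tmppe, so its signal cannot be told apart from that of the other gene. That probe set averaged 6.18 ± 0.34 in scramble and 6.84 ± 0.38 in MYTHO-KD muscle (difference 0.66 ± 0.23, SE; limma adjusted p = 0.275). Man2b1, lysosomal α-mannosidase, averaged 6.65 ± 0.25 in scramble and 7.13 ± 0.34 in MYTHO-KD muscle (difference 0.48 ± 0.21, SE; limma adjusted p = 0.385). For Glb1 and Man2b1 the ranges of 1 SD around the averages overlapped.

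The other 5 glycan and sulfate hydrolases did not pass. Gaa, the acid α-glucosidase that degrades lysosomal glycogen, averaged 15.57 ± 0.27 in scramble and 15.51 ± 0.36 in MYTHO-KD muscle, and the 95% interval of its difference ran from -0.53 to 0.41. Gla, α-galactosidase A, which carries the 8-letter form in its window, had the lowest difference of this group (-0.38, interval -0.94 to 0.18). Neu1, Sgsh and Arsa, which encode a sialidase, a heparan sulfatase and arylsulfatase A, lay at differences from 0.00 to 0.35. In 9 of the 11 genes the SD was larger in MYTHO-KD than in scramble muscle.

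Of the 10 proteases 3 were higher and 0 lower, with a median log2 difference of 0.42. Ctsc encodes cathepsin C, a dipeptidyl peptidase that activates granule proteases of immune cells. It averaged 10.80 ± 0.08 in scramble and 11.54 ± 0.59 in MYTHO-KD muscle (log2 signal, SD, n = 4). The difference was 0.74 ± 0.26 (SE), or 1.67-fold (limma adjusted p = 0.269), and the arrays of the MYTHO-KD group spread far more than those of the scramble group. Ctsl encodes cathepsin L, a major cysteine protease of lysosomal protein turnover in muscle. Its averages were 10.38 ± 0.40 in scramble and 11.04 ± 0.48 in MYTHO-KD muscle (difference 0.66 ± 0.26, SE; 1.58-fold; limma adjusted p = 0.344). Ctsh, cathepsin H, an aminopeptidase, averaged 7.30 ± 0.27 in scramble and 7.82 ± 0.37 in MYTHO-KD muscle (difference 0.52 ± 0.22, SE; limma adjusted p = 0.366). The ranges of 1 SD overlapped for Ctsl and Ctsh and not for Ctsc.

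The 7 proteases that did not pass spanned differences from -0.36 to 0.58. Ctsk, the collagen-degrading cathepsin K, lay at 0.58 with SDs of 0.62 and 0.65, so that its 95% interval reached from -0.18 to 1.34. Ctsb, cathepsin B, lay at 0.44 (interval -0.07 to 0.95) and Ctsz at 0.40 (-0.03 to 0.83). Ctsd, the aspartic protease cathepsin D, shared its probe set with Ifitm10 and lay at 0.12 (-0.27 to 0.51). Tpp1, a tripeptidyl peptidase, and Ctsf had differences of 0.13 and -0.10. Ctsa, the protective protein that stabilises β-galactosidase and sialidase, had the lowest value of the proteases (-0.36, interval -0.90 to 0.18). Ctsa and Ctsd are the proteases with the 8-letter form.

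Among the 6 lipid hydrolases and helper proteins 1 was higher (16.7%), against 6.48% of all probe sets, a count near that share in so short a list. Grn encodes progranulin, a secreted and lysosomal glycoprotein that is processed into granulins and is abundant in macrophages. Its average was 9.44 ± 0.41 in scramble and 10.26 ± 0.49 in MYTHO-KD muscle, a difference of 0.82 ± 0.27 (SE) or 1.77-fold (limma adjusted p = 0.242), with overlapping ranges of 1 SD. Psap, the precursor of the saposins that present sphingolipids to their hydrolases, averaged 15.67 ± 0.19 in scramble and 15.65 ± 0.13 in MYTHO-KD muscle. The 95% interval of its difference, from -0.38 to 0.34, excluded a change of 1.5-fold in either direction. Lipa, the lysosomal acid lipase, lay at 0.43 (interval -0.04 to 0.90). Asah1, Ppt1 and Npc2, which encode acid ceramidase, a palmitoyl-protein thioesterase and a soluble cholesterol carrier, had differences of 0.35, 0.21 and -0.16.

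The membrane proteins went both ways. Npc1, the cholesterol exporter of the lysosomal membrane that works together with NPC2, averaged 11.15 ± 0.08 in scramble and 10.12 ± 0.34 in MYTHO-KD muscle (log2 signal, SD, n = 4). The difference of -1.03 ± 0.19 (SE) left 49.0% of the scramble signal (limma adjusted p = 0.0512), and its gap far exceeded the sum of the SDs. The soluble partner Npc2 lay at -0.16 (95% interval -0.62 to 0.30). Lamp2, a structural membrane glycoprotein needed for the fusion of autophagosomes with lysosomes, averaged 14.70 ± 0.23 in scramble and 15.22 ± 0.42 in MYTHO-KD muscle. Its difference was 0.52 ± 0.22 (SE; limma adjusted p = 0.381), with overlapping ranges of 1 SD. Its relative Lamp1 averaged 14.80 ± 0.16 and 14.99 ± 0.07, and its 95% interval, from -0.15 to 0.53, held 0. The difference between Lamp1 and Lamp2 was not tested. Mcoln1, the calcium channel mucolipin 1, lay at -0.29 (interval -0.78 to 0.20). Cd63, a tetraspanin, and Scarb2, the receptor that carries β-glucocerebrosidase to the lysosome, lay at -0.06 and 0.06.

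**Figure D2:**
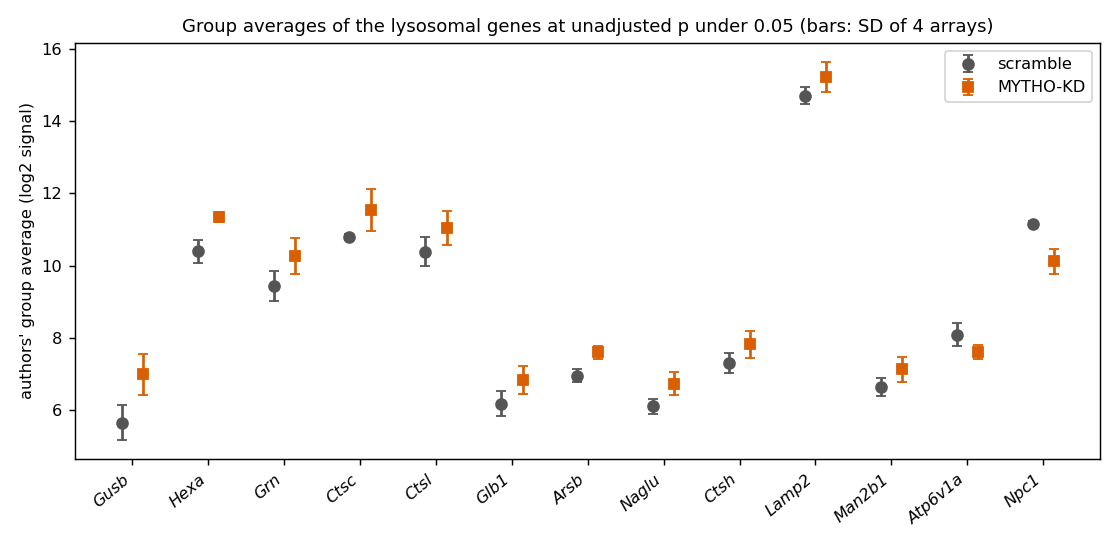
Authors' group averages (log2 signal) of the 13 genes with an unadjusted limma p under 0.05, circles for scramble and squares for MYTHO-KD, with bars of 1 SD over 4 arrays. Gusb, Hexa, Ctsc, Arsb, Naglu and Npc1 show bars that do not overlap; a height is to be read within a gene and not between genes, since each probe set has its own response.

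Of the 7 V-ATPase genes 0 were higher and 1 was lower, against 6.48% and 5.52% of all probe sets, so the count is near those shares. Atp6v1a, the catalytic A subunit that binds ATP in V1, averaged 8.09 ± 0.32 in scramble and 7.62 ± 0.19 in MYTHO-KD muscle (log2 signal, SD, n = 4). The difference of -0.47 ± 0.19 (SE) left 72.2% of the scramble signal (limma adjusted p = 0.361), and the ranges of 1 SD overlapped slightly. The other V1 subunits did not pass. Atp6v1b2, the B subunit, averaged 10.23 ± 0.22 in scramble and 10.42 ± 0.37 in MYTHO-KD muscle (difference 0.19, 95% interval -0.26 to 0.64). Atp6v1h, the regulatory H subunit, averaged 8.49 ± 0.46 and 8.26 ± 0.27 (difference -0.23, interval -0.75 to 0.29). None of these intervals excluded a change of 1.5-fold in both directions.

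In the V0 sector, Atp6v0c, the proteolipid c subunit of the proton-carrying ring, averaged 15.13 ± 0.20 in scramble and 15.41 ± 0.09 in MYTHO-KD muscle (difference 0.28, interval -0.07 to 0.63). That probe set also names the pseudogene Atp6v0c-ps2. The other probe set with this symbol lies at chr6:37805975-37807095, where RefSeq places the pseudogene, and its averages were 13.82 and 13.80. Atp6v0d1, the common d subunit, averaged 9.44 ± 0.41 and 9.29 ± 0.24 (difference -0.15, interval -0.63 to 0.33). Its isoform Atp6v0d2, known from osteoclasts and some macrophages, averaged 4.69 ± 0.25 and 4.97 ± 0.11 (difference 0.28, interval -0.09 to 0.65), near the lower end of the table, where averages start at 3.18. Atp6ap1, an accessory subunit, averaged 11.67 ± 0.15 and 11.72 ± 0.15 (difference 0.05, interval -0.30 to 0.40), which excluded 1.5-fold in either direction.

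The 3 transcription factors had no mRNA difference past the threshold. Tfeb averaged 8.39 ± 0.19 in scramble and 8.32 ± 0.13 in MYTHO-KD muscle, with a difference of -0.07 (95% interval -0.43 to 0.29). Tfe3 averaged 7.44 ± 0.22 and 7.42 ± 0.04, with a difference of -0.02 (interval -0.37 to 0.33). Both intervals excluded a change of 1.5-fold in either direction. Mitf averaged 9.32 ± 0.45 and 8.80 ± 0.37, with a difference of -0.52 (interval -1.07 to 0.03; limma adjusted p = 0.440).

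The median difference was lower in genes with an E-box in the window than in genes without one. The 6 genes with the 8-letter form had a median log2 difference of -0.33, ranging from -0.47 to 0.12, and 5 of them lay below 0. At an unadjusted p under 0.05, 0 of these 6 were higher and 1 was lower. Over all probe sets 6.48% were higher and 5.52% lower, and in 6 genes these counts are near those shares. The 8 genes with the hexamer alone had a median of 0.16, and 3 of them were higher at that p, Ctsl, Glb1 and Naglu at 0.66, 0.66 and 0.62. The 22 genes with no hexamer in the window had a median of 0.32, and 7 of them were higher at an unadjusted p under 0.05. By these counts the genes with the hexamer alone did not fall below those with no hexamer. Among the hydrolases and helper proteins alone the order was the same, with medians of -0.36 over 3 genes, 0.12 over 7 and 0.46 over 14. Among the membrane proteins, V-ATPase genes and transcription factors it was not, with medians of -0.29 over 3 genes with the 8-letter form and 0.02 over 8 with no hexamer, and Lamp1 alone at 0.19 with the hexamer. Lamp1 has 4 hexamers in its window. These are descriptions of 36 windows of 300 bases, no test of the classes was made, and nothing follows from them about the activity of a factor.

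**Figure D3:**
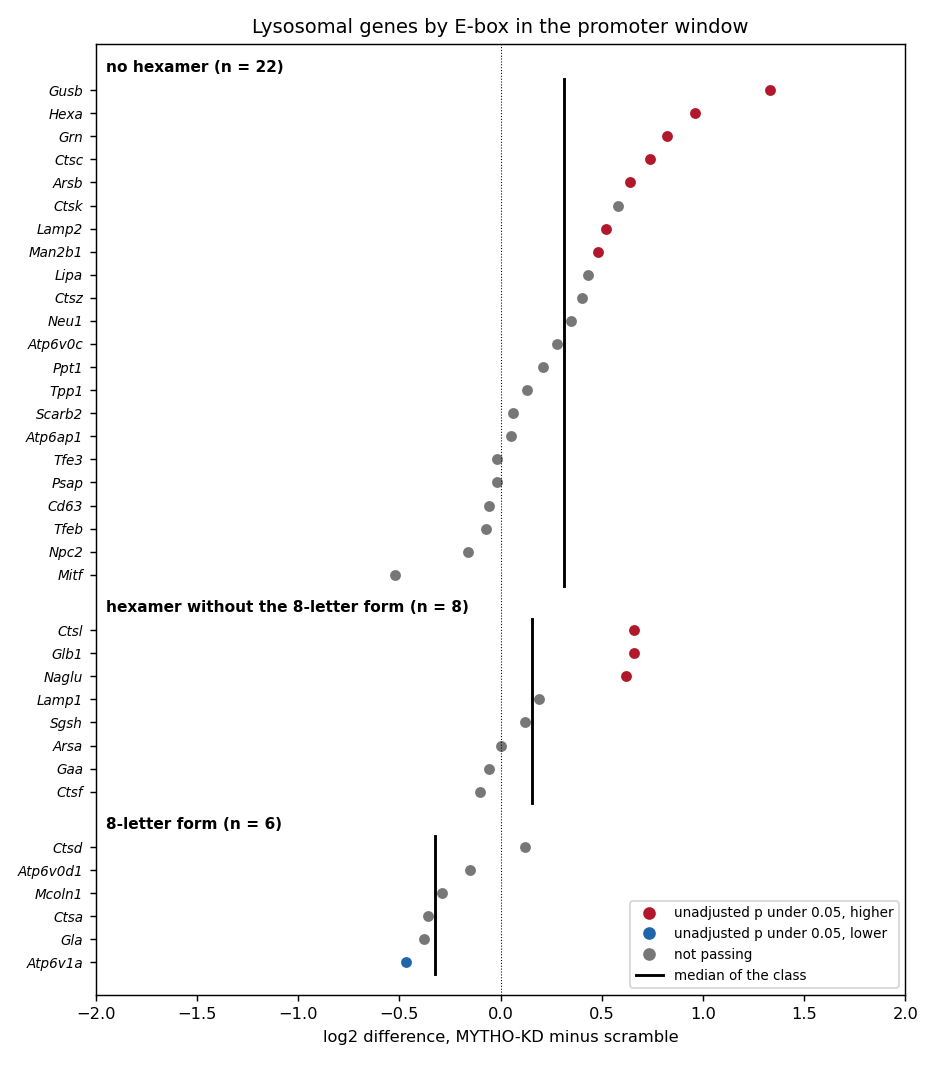
Log2 difference of MYTHO-KD minus scramble for the 36 genes with a promoter window, grouped by the form of the E-box the window holds, with a vertical line at each group's median. The medians stand at 0.32 with no hexamer, 0.16 with the hexamer alone and -0.33 with the 8-letter form, and single genes of the groups overlap.

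Other lysosomal genes were read in the same way. They were listed by function, with earlier results of these data known, so they are no independent check of the genes above. Of 23 other hydrolases 5 were higher (21.7%) and 0 lower, against 6.48% and 5.52% of all probe sets. Of the 23, 18 lay above 0, against 46.9% of all probe sets. Ctss, cathepsin S, a protease of antigen-presenting cells, had the largest difference of these (7.26 ± 0.35 in scramble, 8.36 ± 0.55 in MYTHO-KD; difference 1.10; limma adjusted p = 0.131). Fuca1, α-fucosidase, was higher by 0.67 (limma adjusted p = 0.250). Of 14 other membrane proteins 3 were higher (21.4%) and 1 lower (7.14%), the latter near the share over all probe sets. Laptm5, a lysosomal protein of blood cells, was higher by 0.96 (limma adjusted p = 0.134) and Ostm1, the partner of the chloride transporter ClC-7, by 0.90 (limma adjusted p = 0.153). Mfsd8, a membrane transporter mutated in a form of neuronal ceroid lipofuscinosis, was lower, with a difference of -0.84 (limma adjusted p = 0.114).

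Among the other V-ATPase genes more were lower than higher. Of 19 of them 5 were lower (26.3%) and 1 higher (5.26%), against 5.52% and 6.48% of all probe sets. A difference below 0 was found in 14 of the 19, against 51.4% of all probe sets. Atp6v0a1, an isoform of the large a subunit of V0, averaged 13.76 ± 0.28 in scramble and 12.84 ± 0.13 in MYTHO-KD muscle (difference -0.92; limma adjusted p = 0.0652). Atp6v1g1 and Atp6v1g2, isoforms of the stalk subunit G, each had a difference of -0.67, with adjusted p-values of 0.164 and 0.204 in limma. Over the 26 V-ATPase genes together, 6 were lower (23.1%) and 1 higher (3.85%), with a median of -0.11. The count of higher genes is near the share over all probe sets. Hydrolases and pump thus differed in the direction of their counts, and the difference between the lists was not tested.

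In a list of 9 genes for hydrolase sorting, by mannose 6-phosphate or by an alternative receptor, 1 was higher and 1 lower (11.1% each). Over all probe sets the shares were 6.48% and 5.52%, and in a list this short 1 gene is near them. Sort1, the alternative sorting receptor sortilin, averaged 12.88 ± 0.09 in scramble and 11.83 ± 0.46 in MYTHO-KD muscle (difference -1.05; limma adjusted p = 0.0771). M6pr, the cation-dependent mannose 6-phosphate receptor, was higher by 0.52 (limma adjusted p = 0.323), and Gnptab, which makes the mannose 6-phosphate tag, lay at 0.35 and did not pass. The Ragulator, the Rag GTPases and folliculin recruit mTORC1 to the lysosome. Of their 13 genes 1 was higher (7.69%) and 2 were lower (15.4%), again few genes beside those shares. Rragd, the RagD GTPase, averaged 13.99 ± 0.22 in scramble and 12.59 ± 0.57 in MYTHO-KD muscle (difference -1.40; limma adjusted p = 0.0547). Lamtor3 lay at 0.56 and Lamtor2 at -0.34, with adjusted p-values of 0.368 and 0.413 in limma.

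Some markers of macrophages, fibroblasts and endothelial cells were also higher in MYTHO-KD muscle, and the lists as a whole were not tested. Of 14 macrophage markers 8 were higher (57.1%) and 0 lower, against 6.48% and 5.52% of all probe sets. All 14 had a difference above 0, against 46.9% of all probe sets, and the median was 0.58. All 8 fibroblast markers (median 0.77) and all 6 endothelial markers (median 0.45) lay above 0 too. The averages of the macrophage markers ranged from 4.84 to 9.56 in scramble and from 5.26 to 11.11 in MYTHO-KD muscle. Cd68, a lysosomal membrane glycoprotein of macrophages, averaged 6.90 ± 0.20 in scramble and 9.43 ± 0.88 in MYTHO-KD muscle (difference 2.53; limma adjusted p = 0.0182), and Lyz2, lysozyme, 9.17 ± 0.35 and 11.11 ± 0.62 (difference 1.94; limma adjusted p = 0.0277). C1qb, a complement chain made by macrophages, was higher by 1.27 (limma adjusted p = 0.0754). The SD was larger in MYTHO-KD than in scramble muscle in 10 of the 14. Of 8 fibroblast markers 3 were higher (37.5%), against 6.48% of all probe sets. These were Lum (1.49), Col3a1 (1.43) and Pi16 (1.14), with limma adjusted p-values of 0.0443, 0.102 and 0.126. Of 6 endothelial markers 2 were higher (33.3%), few genes beside that share. These were Kdr (0.75) and Eng (0.64), with limma adjusted p-values of 0.190 and 0.364. Of 6 osteoclast markers, 5 neutrophil markers and 5 T cell markers, 0 passed in either direction, with medians of 0.04, -0.27 and -0.17. Their signal was low, with median scramble averages of 5.59, 5.47 and 5.92 against 6.81 over all probe sets. Oscar, S100a8 and Cd3g were flagged as not expressed in MYTHO-KD muscle. A difference in these cells may thus have been missed. Of the 10 fast fibre markers 1 was higher (Myh1, 0.59) and 1 lower (Eno3, -0.32), with limma adjusted p-values of 0.230 and 0.408. In a list this short these counts (10.0% each) are near the 6.48% and 5.52% of all probe sets. Acta1, Myh4 and Atp2a1 sat at the highest value in the table, where a difference could not show. Tnnt3, Tnni2, Mylpf and Pvalb averaged 19.32 to 19.73 in scramble muscle, close to it. The count of fast fibre markers therefore does not show that fibre RNA held steady. None of these lists shares a gene with the 43. The part of these markers in the hydrolase differences was not tested, and in RNA of whole muscle fewer or more cells of a type and less or more RNA per cell cannot be told apart.

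**Figure D4:**
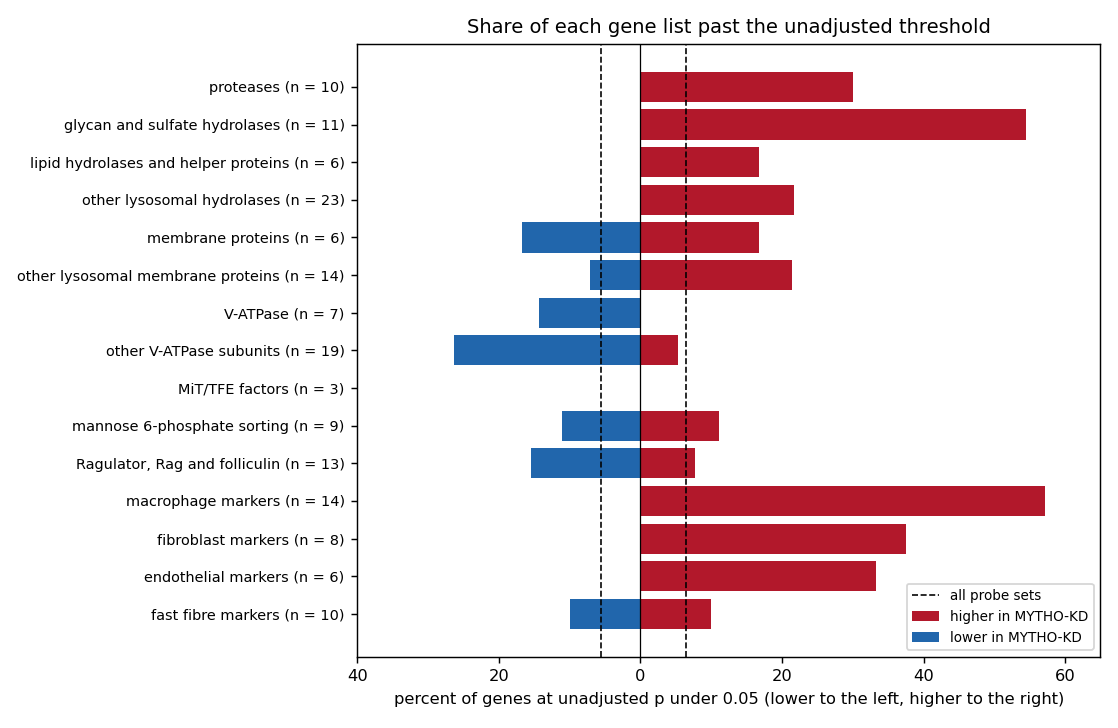
Percent of the genes of each list drawn with an unadjusted limma p under 0.05, bars to the right for higher and to the left for lower in MYTHO-KD muscle. Dashed lines mark the shares over all probe sets (6.48% higher and 5.52% lower). The osteoclast, neutrophil and T cell markers, of which 0 passed, are not drawn. The glycan and sulfate hydrolases (6 of 11) and the macrophage markers (8 of 14) reach furthest to the right, and the other V-ATPase subunits (5 of 19) furthest to the left.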

How the data were processed

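Total RNA was isolated with Trizol and hybridised to 8 Clariom S Mouse arrays, 4 a group, grouped by the sample labels. The authors normalized the arrays by SST-RMA with default settings of the Transcriptome Analysis Console; the submitters' processing notes name Affymetrix Expression Console, RMA and mm10. The deposited table holds 22206 probe sets and 28 columns, with log2 group averages and SDs. The kind of average is not given in the sources used here; if it is not a plain mean, p-values are somewhat too low. Per the file headers, 3 columns hold the authors' fold change, p-value and false discovery rate, which were not used.

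A limma model on single arrays could not be fitted because 0 columns hold single arrays. The moderated test of limma 3.58.1 (R 4.3.3) was computed from the averages and SDs instead, with 6 residual degrees of freedom, a prior SD of 0.284 and 5.85 prior degrees of freedom. It was two-sided and adjusted by Benjamini-Hochberg over all probe sets, and was tested on simulated data. The simulated arrays were independent, so that test does not cover the placing of the groups in opposite legs. In 21 probe sets a group's SD was 0. The labels do not say that the arrays are separate animals, so p-values measure the spread between these samples, which may be technical, and a check for a sample hybridised more than once was not possible with group averages. The number of arrays limits the precision.

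The 43 genes and all lists were chosen with earlier results of these data known. Values are printed for each of the 43 genes at an unadjusted p under 0.05, for the V-ATPase genes, the transcription factors, Lamp1, Lamp2, the genes with the highest and the lowest mean signal (Psap and Atp6v0d2), the targeted gene and, in each other list, up to 3 genes with the largest moderated t, of which 1 gene is not reported here; other genes named were chosen after their values were seen. Promoter windows came from RefSeq (GRCm38.p6). The genes without a window were Ctsb, Ctsh, Asah1, Npc1, Atp6v1b2, Atp6v1h and Atp6v0d2. Trac, a T cell marker, was not in the table. Alternatives were no moderation, a trended and robust prior, unequal variances, leaving out dim probe sets, other rules for genes with several probe sets, and centring of the groups.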

Additional observations from a re-analysis of the deposited data

How the results depend on the processing

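Over all probe sets, the 61 with an adjusted p under 0.05 became 2 without moderation, 189 with the trended and robust prior and 2 with unequal variances. Among the 43 genes the 0 with an adjusted p under 0.05 became 3 with the trended and robust prior (Hexa, Gusb and Npc1) and 1 when probe sets under the 30th percentile of the mean signal were left out (Npc1, adjusted p = 0.0431). With unequal variances the counts at an unadjusted p under 0.05 went from 11 to 6 higher and from 2 to 1 lower; Ctsc, Ctsh, Ctsl, Man2b1, Lamp2 and Atp6v1a no longer passed. Without moderation Ctsh, Ctsl, Man2b1 and Lamp2 no longer passed and Atp6v0c did. With no moderation, the trended prior or unequal variances, the averages and differences stay the same and the variance or its degrees of freedom differ by construction. Leaving out dim probe sets also lowers the number of tests. The median difference of the 43 genes was 0.13 when probe sets of a gene were averaged, 0.13 over the 41 with a probe set that names them alone, and 0.19 after centring, since the group medians differed by 0.00. Of 142 alternative values of 24 named genes, 11 changed their call and 1 its direction: Atp6v0c, which did not pass, went from 0.28 to -0.02 where probe sets naming a gene alone were used. Among the 41, Atp6v0c stands with the probe set at its pseudogene, and over the other 40 the median was 0.16, an alternative added after seeing the data. For the E-box, the share among protein-coding genes was added after seeing the data.

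No paired analysis was possible because the table holds group averages, although the labels number the arrays of each group and the study's methods place the groups in opposite legs. For the same reason leaving out each array in turn was not run, so whether 1 array decides a value, above all where the SD of the MYTHO-KD group was large (Ctsc, Gusb, Cd68), is not known.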
